A study of Mus musculus with 6 samples.

Results

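The genes described here are the zinc finger genes whose mouse symbol is Zfp followed by a number, read in the cortex of mice after stroke. Members were the protein-coding symbols of that form with a total of at least 120 reads over the 6 libraries, once the rows of the count table had been summed per symbol. Of 381 such symbols in the table, 269 met the rule, out of 24553 genes and unmatched rows in all. The members were thus chosen by their total read counts, so the levels below are a description of the family, and the comparison of treatments did not enter the rule. A gene near the minimum can still reach it through the group where its reads are higher. Most members carry Cys2His2 zinc fingers, small folds in which cysteine and histidine residues hold a zinc ion and which, strung in a row, read DNA bases. Many also begin with a KRAB box, a segment that recruits the corepressor TRIM28 and through it enzymes that methylate histones and silence transposable elements. These KRAB genes arose by repeated duplication and lie in clusters of near copies along the chromosomes. A smaller number of genes share the name without that role, such as Zfp36, which encodes the messenger RNA decay factor tristetraprolin.

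RNA was measured by sequencing in 3 libraries from mice given short-chain fatty acids (SCFA), products of bacterial fermentation in the gut, and 3 libraries from mice given a salt-matched control. All were male C57BL/6J mice (the strain label says C57BL/6), and every animal also drank water with 5% sucrose and 4 antibiotics (vancomycin, ampicillin, neomycin and metronidazole), so the controls too are antibiotic-treated animals. The drinking water held SCFA or salts for 4 weeks, begun when the mice were 6 to 8 weeks old, and cortex was compared 14 days after stroke at 15 weeks of age. The comparison asks how SCFA alter the transcriptome of the post-stroke cortex. The series gives 3 against 3, and the labels do not say how each library relates to a single animal, so the spread between libraries may in part be technical.

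Total counts ran from 9275252 to 13862756 per library, of which a single unmatched row took 35.0% to 55.3%. Zfp members held between 64096 and 100086 reads of a library. A library stood apart in each group. On the leading principal component control 2 stood at 109, and that component held 49.99% of the variance, while the other 5 lay between -25.8 and -17.7, and it had reads in 13600 rows against 15988 to 16941. SCFA 2 lay at 51.6 on the second component (15.3%), where the next was SCFA 3 at 9.54. Results that rest on these libraries are given with and without them. Excitatory neuron markers were present in every library, all 7 of them tested, at a summed 2689 to 3544 CPM (read counts scaled to library size, here with TMM factors) in controls and 3360 to 3878 CPM with SCFA. Some other cell types moved with the groups, while the summed markers of oligodendrocytes, inhibitory neurons and choroid plexus overlapped between them. The 11 microglia markers, of which 10 were tested and Ctss was at 0, summed to 362 to 469 CPM in controls and 627 to 946 CPM with SCFA. All 7 astrocyte markers were tested, and they summed to 660 to 771 CPM and 943 to 1479 CPM. Of 7 endothelium markers 5 were tested, and they summed to 56.2 to 76.9 CPM in controls and 86.9 to 125 CPM with SCFA. The 9 exocrine pancreas markers held 334 to 3046 reads per control library and 6 to 12 per SCFA library. Pancreas is not part of the cortex, so these transcripts are foreign to the sampled tissue. Their presence goes with the groups and cannot be told apart from the treatment. Whether these shifts had a part in any Zfp difference below was not tested, and in bulk tissue fewer cells of a type and less RNA per cell cannot be told apart.

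The coding sequence of a finger shows what the members share. Each line below gives the stretch from the first cysteine to the last histidine of the first finger in a member, from GENCODE M21 transcripts on GRCm38, with the codons of the zinc-holding cysteines and histidines in capitals. The 4 genes are those with the smallest p in each direction, Zfp433 and Zfp93, and the leading lower members on chromosomes 13 and 17, Zfp874a and Zfp955a. All 4 stretches are exonic coding sequence of 63 bases, on chromosome 10 from 81719987 to 81720049 (plus strand), chromosome 7 from 24275450 to 24275512 (plus), chromosome 13 from 67443087 to 67443149 (minus) and chromosome 17 from 33242317 to 33242379 (minus).
Zfp433: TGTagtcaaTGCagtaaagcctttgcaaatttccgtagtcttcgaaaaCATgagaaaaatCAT
Zfp93: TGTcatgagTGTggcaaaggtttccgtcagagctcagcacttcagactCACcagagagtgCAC
Zfp874a: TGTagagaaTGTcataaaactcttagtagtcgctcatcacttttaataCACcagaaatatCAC
Zfp955a: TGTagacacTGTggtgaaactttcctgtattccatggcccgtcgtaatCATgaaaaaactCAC

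The finger pattern searched was a cysteine, 2 to 4 residues, a cysteine, 12 residues, a histidine, 3 to 5 residues and a histidine, in the translated longest GENCODE coding sequence of each gene. Of 269 members, 267 had such a sequence. They held a median of 11 fingers, 163 held 10 or more, and the highest number was 33, in the KRAB gene Zfp619 and in Zfp462, which encodes a large nuclear protein of embryonic and neural development. The pattern was absent from 5 members, among them Zfp36, whose fingers are of another type, and Zfp365, whose product, also known as DBZ, binds the scaffold protein DISC1. A KRAB box pattern stood in 139 of the 267. A box of another form would be missed, so members without the pattern may include KRAB genes. Because fingers recur within and between genes, reads of near copies can be shared, and the counts of such genes are uncertain. The share of 50-base windows of a coding sequence that also stood in a transcript of another gene had a median of 0% over the members and exceeded 10% in 60 of them. It was 92.3% for Zfp433 and 100% for Zfp781 and Zfp973, so the counts of these members may include those of other genes.

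Promoters of the family held few CG pairs beside those of all tested genes, a difference that was not tested. In the 250 bases before a transcript start (RefSeq, GRCm38.p6; CG reads the same on both strands), 223 members had a median of 10 CG, against 16 over 8829 tested protein-coding genes, and 54.7% of members held 10 or more against 73.5%. The windows of the leading lower members on chromosomes 13 and 17 follow, with CG in capitals, at chr13:67451625-67451874 and chr17:33255146-33255395, both on the minus strand. They hold 9 and 7 CG. The gene record of Zfp955a reaches to 33255168, beyond the transcript start used, so the end of its window nearest the start lies inside that record.
Zfp874a: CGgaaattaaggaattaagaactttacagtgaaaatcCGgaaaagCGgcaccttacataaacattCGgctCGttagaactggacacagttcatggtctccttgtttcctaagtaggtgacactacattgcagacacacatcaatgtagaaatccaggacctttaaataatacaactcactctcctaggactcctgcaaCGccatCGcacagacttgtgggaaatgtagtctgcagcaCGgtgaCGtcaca
Zfp955a: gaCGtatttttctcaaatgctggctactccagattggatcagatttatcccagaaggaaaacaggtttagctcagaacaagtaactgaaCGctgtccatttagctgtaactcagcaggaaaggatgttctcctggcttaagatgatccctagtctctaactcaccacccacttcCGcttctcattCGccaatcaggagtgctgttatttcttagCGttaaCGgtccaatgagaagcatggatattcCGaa

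Many Zfp symbols fell short of the rule, and most of those had several transcript rows. Of the 112 that did not meet it, 91 had some reads and 21 had none in any library. Members with 1 row in the table numbered 252 and those with several rows 17, while the Zfp symbols outside the rule had 30 with 1 row and 82 with several. The counting rule for reads shared by several transcripts is not stated, and its part in this split was not tested, so a low total of a gene with several rows was not read as low expression. Just inside the limit were Zfp366 (131 reads), Zfp947 (133) and Zfp865 (144), and just outside it Zfp444 (111), Zfp809 (109) and Zfp92 (104). Zfp809, which silences integrated retroviruses in mouse embryonic cells, has 3 rows. Also outside were Zfp57, a guardian of genomic imprints, with 87 reads, 39 of them in control 1, and the stem cell regulator Zfp281, which had 0 in all 6 libraries over 2 rows. All 269 members passed the low-count filter of the test.

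The members spanned a wide range of levels, and a few dominated. Totals ran from 131 to 41709 reads, with a median of 968. Per kilobase of the GENCODE transcript, which may be shorter than the true one where untranslated ends are missing, the median level was 4.46 CPM per kb over 267 members. Zfp365 stood at 143 CPM per kb, Zfp148, the transcription factor ZBP-89, at 56.4, and Zfp106, an RNA-binding protein that motor neurons require, at 51.7. Zfp781 measured 102 CPM per kb on a model of 732 bases. All windows of its coding sequence (100%) also stood in transcripts of other genes, so this level may include their reads.

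The family's most abundant members overlapped between SCFA and control libraries. Zfp365 measured 637, 459 and 746 CPM in controls 1 to 3, against 665, 516 and 641 CPM in SCFA 1 to 3. In both groups library 2 was the lowest, and the groups overlapped. Its log2 fold change (SCFA over control) was -0.02 (SE 0.174, edgeR adjusted p = 0.994), and the sign changed with the scaling and with single libraries. Zfp106 measured 476, 463 and 550 CPM in controls and 461, 400 and 471 CPM with SCFA, giving a log2 fold change of -0.16 (SE 0.134, edgeR adjusted p = 0.910) that became 0.00 with total-count scaling. Zfp644, which encodes a repressor that works with histone methyltransferases, had 300, 253 and 291 CPM in controls and 278, 186 and 252 CPM with SCFA. SCFA 2 was again the lowest library (log2 fold change -0.24, SE 0.161, edgeR adjusted p = 0.899). None of these 3 passed, and in each the groups overlapped.

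Across the family, more members lay below their control level with SCFA than above it, without any single gene passing the test. At an adjusted p under 0.05 (edgeR quasi-likelihood test, Benjamini-Hochberg adjustment over 11969 genes), 0 members were higher and 0 lower, where 0.00835% of all tested genes were called higher and 0.0752% lower. DESeq2 and limma-voom also called 0 members in each direction. The smallest adjusted p of a member was 0.480. At an unadjusted p under 0.05, 1 member was higher and 18 lower (0.372% and 6.69% of 269), against 2.97% and 2.79% of all tested genes. Without control 2 and SCFA 2, the libraries that stood apart, these numbers were 6 higher and 13 lower, without SCFA 2 alone 1 and 13, and with total-count scaling 3 and 4. The shares of all tested genes in these settings are not given here, so these counts have no background beside them. Total-count scaling moved the median log2 fold change of all tested genes to 0.18. All 18 members lower in the main comparison kept a log2 fold change below 0 without control 2 and SCFA 2. They had been picked with the remaining libraries included, so this is no independent support. Groups did not overlap in 31 members lower with SCFA and 14 higher (11.5% and 5.204%), against 5.74% and 6.42% of all tested genes.

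The shift of the whole family was small and moved with single libraries. The median log2 fold change over the 269 members was -0.10, with 165 (61.3%) below 0, where 49.1% of all tested genes were below 0 and their median was 0.01. Without SCFA 2 the median was -0.02 with 144 members below 0, without control 2 it was -0.16 with 184, and without both it was -0.10 with 170. Total-count scaling moved the median of all genes to 0.18 and that of the members to 0.06, so the members lay 0.12 below all genes where the main scaling put them 0.11 below. The member score, the mean of the members' log2 CPM after each gene is centred on its mean over the 6 libraries, was 0.12, -0.14 and 0.09 in controls 1 to 3, against 0.07, -0.15 and 0.01 in SCFA 1 to 3. The groups overlapped in this score, and library 2 was the lowest in both. SCFA 2 was the lowest of the 6 libraries for 92 members (34.2%), where it was the lowest for 18.5% of all tested genes, and control 2 was the lowest for 83 (30.9%), against 31.2%.

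The difference varied with level, in part through control 2. Members were split into lower, middle and upper groups of nearly equal size at mean levels of 8.70 and 24.2 CPM over the 6 libraries. In the upper group, 73 of 90 members (81.1%) lay below 0 with a median of -0.15, against 52.6% of 4123 tested genes within the same bounds (median -0.02). In the middle group, 49 of 89 lay below 0 (median -0.11, against 0.02 over 2770 genes, and -0.02 without SCFA 2), and in the lower group 43 of 90 (median 0.05, against 0.03 over 3386 genes). The medians of the upper group without SCFA 2, without control 2 and without both were -0.06, -0.22 and -0.11, and with total-count scaling 0.00, where all genes of that level stood at 0.16. Without control 2 the lower and middle medians were -0.11 and -0.12, where all genes of each level stood at 0.02. Without both libraries the lower and middle medians were -0.05 and -0.12. The contrast between the lower and upper groups was thus smaller without control 2. No test of the difference between level groups was made.

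**Figure D1:**
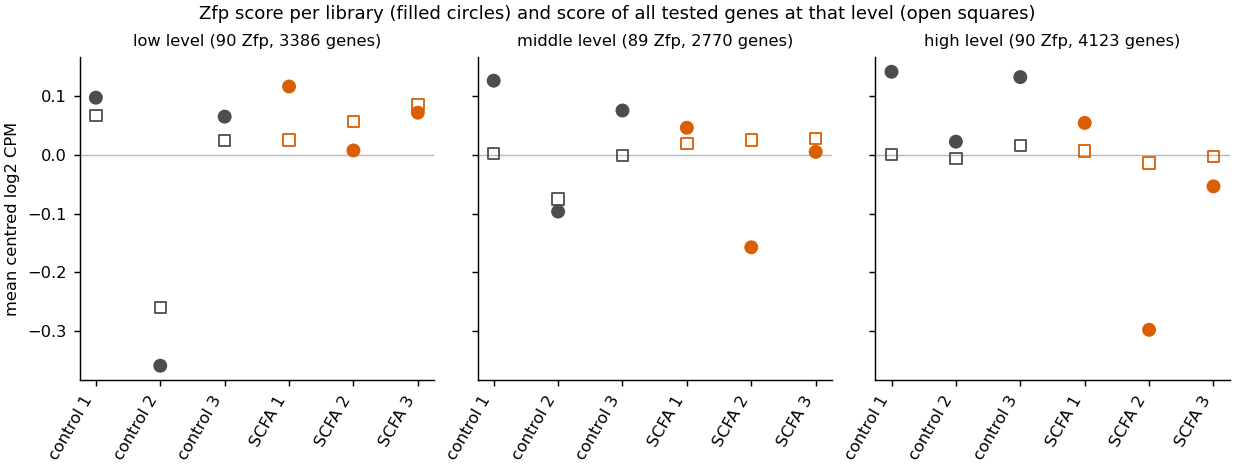
Mean centred log2 CPM per library for Zfp members (filled circles) and for all tested genes of the same level (open squares), with controls in grey and SCFA in orange, by group of mean level. In the upper group the 3 controls stood at 0.14, 0.02 and 0.13 and the SCFA libraries at 0.05, -0.30 and -0.05, while in the lower group control 2 stood at -0.36.

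The libraries can be read apart in the score by level. In the upper group, control 2 at 0.02 lay below SCFA 1 at 0.05, so the groups overlapped, and SCFA 2 at -0.30 lay furthest from the rest. SCFA 2 was the lowest library for 51 of these 90 members (56.7%), where it was the lowest for 25.3% of all tested genes above 24.2 CPM. In the lower group control 2 was the lowest for 35 of 90 members (38.9%), against 33.1% of all genes of that level. Only control 2 had members at 0 reads, 4 in number, of which Zfp503, Zfp202 and Zfp786 had a log2 fold change above 0. Zfp503, Zfp202 and Zfp786 lay near the minimum total and held most of their reads in SCFA libraries. Their values may thus follow in part from the rule for members.

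**Figure D2:**
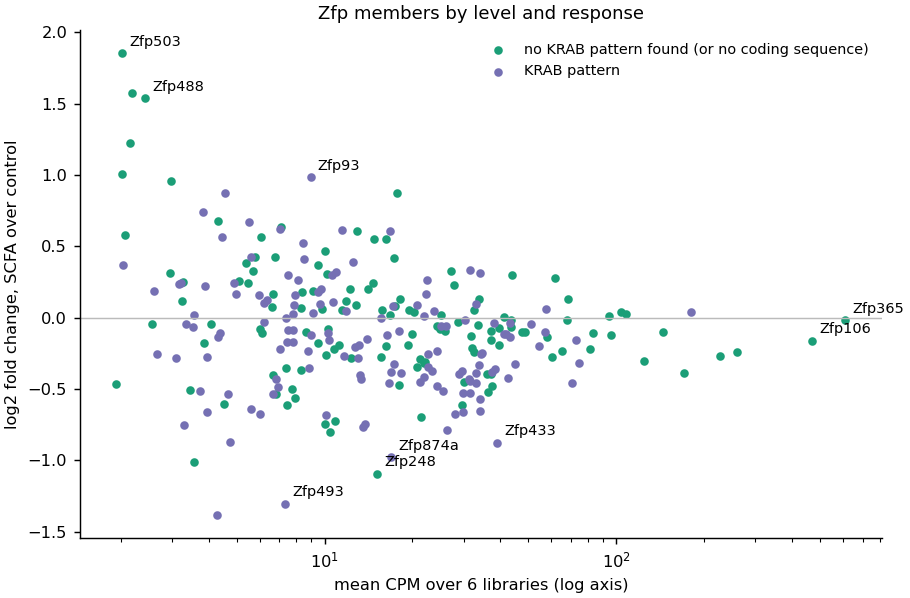
Log2 fold change of the 269 members (SCFA over control, vertical axis) against mean CPM on a log axis, with members that hold a KRAB pattern in purple and the others in green. The largest positive values stand at the lowest levels, led by Zfp503 at 1.85, and the most abundant member, Zfp365, stands at -0.02. Members at the lowest levels lie near the minimum total and may have met it through their group with more reads. Large values there may thus follow in part from the rule for members.

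The member with the smallest p was Zfp433, a KRAB gene with 17 fingers on chromosome 10 (81704747 to 81721976, GRCm38). It measured 52.1, 43.3 and 56.4 CPM in controls 1 to 3, against 27.4, 21.97 and 33.3 CPM in SCFA 1 to 3. Every SCFA library lay below every control. The log2 fold change was -0.88 (SE 0.211, edgeR adjusted p = 0.480), DESeq2 gave an adjusted p of 0.05004, just above the threshold, and of the alternatives run only edgeR without a low-count filter put it past (adjusted p = 0.0296). Zfp248, on chromosome 6 (118427319 to 118455699), had 18.2, 27.0 and 16.5 CPM in controls and 10.05, 9.64 and 9.25 CPM with SCFA. Its SCFA libraries were nearly equal and the groups lay apart, with a log2 fold change of -1.09 (SE 0.283, edgeR adjusted p = 0.693). None of its windows were shared with another gene. Of the leading members described below, more than 10% were shared in Zfp874a (36.8%), Zfp955a (56.9%), Zfp866 (18.5%), Zfp93 (36.2%) and Zfp931 (49.1%). Counts of those genes may also include reads of other genes.

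Among the next 6 lower members, 3 belong to chromosome 13. Zfp874a (67440431 to 67451624) had 17.4, 24.6 and 25.2 CPM in controls and 12.03, 10.7 and 11.3 CPM with SCFA, giving a log2 fold change of -0.98 (SE 0.262, edgeR adjusted p = 0.795). Zfp493 (67779693 to 67789082) had 8.999, 10.7 and 11.4 CPM in controls and 4.50, 2.75 and 5.37 CPM with SCFA, and its log2 fold change was -1.30 (SE 0.397, edgeR adjusted p = 0.864). In both genes the groups lay apart, and SCFA 2 was the lowest library. Zfp748 (67538641 to 67553152), with 23 fingers, had 31.6, 51.6 and 42.3 CPM in controls and 26.2, 22.7 and 30.8 CPM with SCFA. Its highest SCFA library nearly reached its lowest control, and its log2 fold change was -0.65 (SE 0.227, edgeR adjusted p = 0.864) and -0.37 without control 2 and SCFA 2.

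The other 3 came from chromosomes 17, 1 and 8. Zfp955a (33239507 to 33255168 on chromosome 17) had 32.3, 38.3 and 38.8 CPM in controls and 25.5, 19.4 and 24.2 CPM with SCFA. Zfp451, on chromosome 1, encodes a ligase that attaches the protein tag SUMO and has 3 rows in the table; it had 33.8, 40.1 and 33.6 CPM in controls and 26.8, 20.8 and 22.7 CPM with SCFA. Zfp866, on chromosome 8, had 43.9, 36.1 and 42.0 CPM in controls and 24.6, 29.3 and 28.4 CPM with SCFA. Groups lay apart in all 3, with log2 fold changes of -0.66, -0.61 and -0.57, and each had an edgeR adjusted p of 0.864. Of the 18 members lower at an unadjusted p under 0.05, 13 held the KRAB pattern. They were 9.35% of the 139 members with the pattern, and the other 5 were 3.91% of the 128 without it, where 2.79% of all tested genes were lower. Some of the 128 may hold a KRAB box that the pattern missed.

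**Figure D3:**
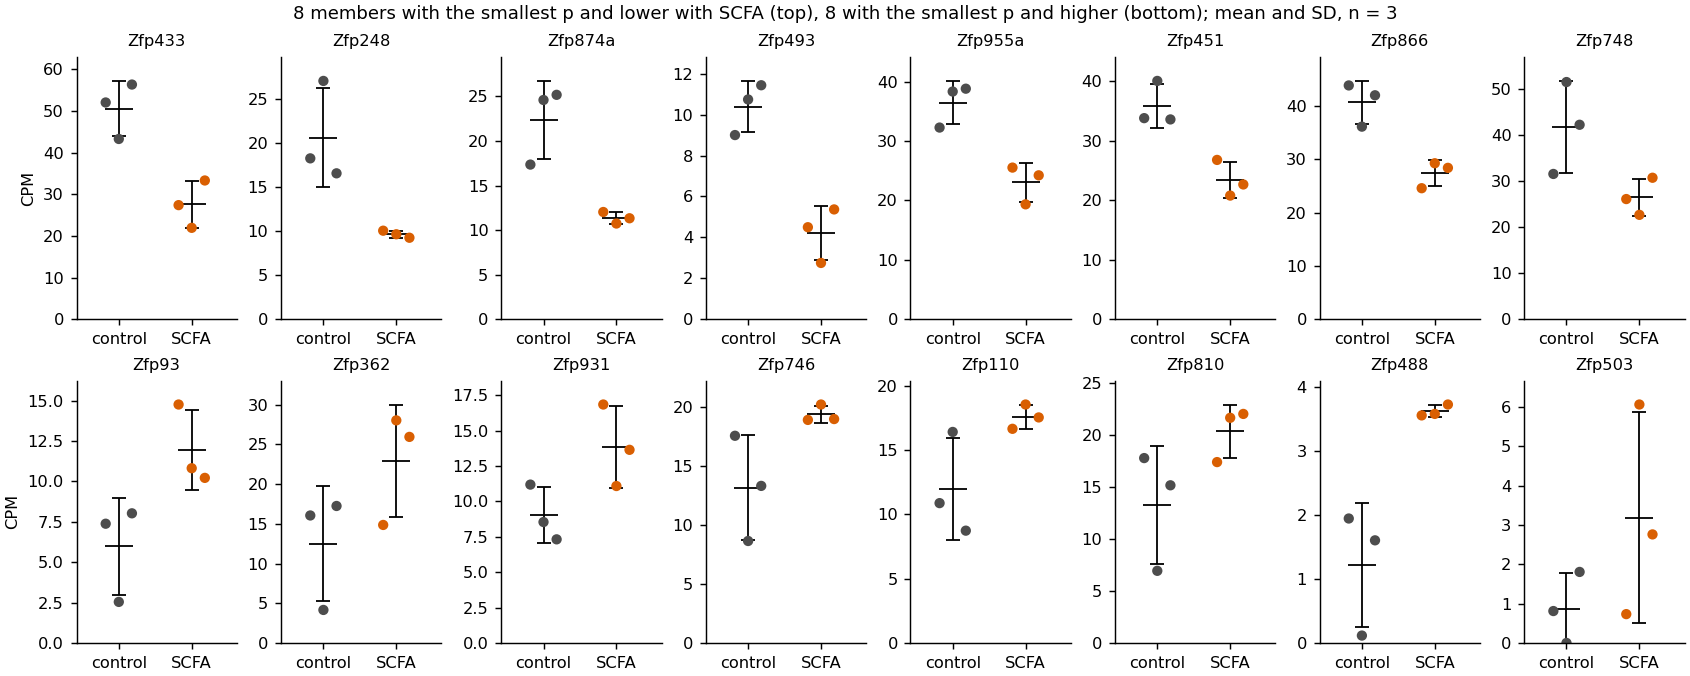
CPM per library (points, controls in grey, SCFA in orange, vertical axes from 0) with mean and SD (n = 3) for the 8 members with the smallest p among those lower with SCFA (top) and the 8 among those higher (bottom). The SCFA points lie below all control points in each top panel, while in the bottom panels control 2 is the lowest control for Zfp93, Zfp362, Zfp746, Zfp810, Zfp488 and Zfp503.

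The leading members above 0 had larger p, and in 6 of the 8 control 2 was the lowest control. Zfp93, a KRAB gene on chromosome 7 (24267984 to 24277794), was the only one at an unadjusted p under 0.05. It had 7.38, 2.54 and 8.02 CPM in controls and 14.8, 10.8 and 10.2 CPM with SCFA, with every SCFA library above every control. The log2 fold change was 0.98 (SE 0.426, edgeR adjusted p = 0.864) and 0.63 without control 2, where the gene had 22 reads against 80 to 157 elsewhere. Zfp746 encodes PARIS, a repressor that the ubiquitin ligase parkin marks for breakdown. It measured 17.6, 8.66 and 13.3 CPM in controls and 18.9, 20.2 and 19.0 CPM with SCFA, giving a log2 fold change of 0.55 (SE 0.291, edgeR adjusted p = 0.888) that was 0.32 without control 2. Zfp110, which encodes a factor that binds the neurotrophin receptor p75, went the other way on that point. Control 2, at 16.4 CPM, was its highest control, beside 10.9 and 8.72 CPM in the others and 16.6, 18.5 and 17.5 CPM with SCFA, so the log2 fold change of 0.55 became 0.84 without control 2.

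Zfp488 and Zfp503 had the largest log2 fold changes of these 8, at very low counts. Their totals of 177 and 160 reads lay near the minimum for members, and most of those reads came from SCFA libraries. The rule for members may thus have favoured values above 0 in such genes. Zfp488, a factor of oligodendrocyte differentiation on chromosome 14, had 24, 1 and 16 reads in controls and 34, 52 and 50 with SCFA. Every SCFA library lay above every control, with a log2 fold change of 1.54 (SE 0.836, edgeR adjusted p = 0.889) that was 1.02 without control 2. All 6 markers of oligodendrocyte precursors were tested, and they summed to 51.4 to 58.6 CPM in controls and 63.2 to 93.2 CPM with SCFA. Zfp503, known as Nolz1 and a marker of developing striatal neurons, had 10, 0 and 18 reads in controls and 7, 88 and 37 with SCFA. SCFA 1 lay among the controls and SCFA 2 far above. The 9 striatal neuron markers, 7 of them tested, summed to 396 CPM in SCFA 2, 71.1 and 80.8 CPM in SCFA 1 and 3, and 72.9 to 133 CPM in controls. The log2 fold change of Zfp503 was 1.85 (SE 1.09, edgeR adjusted p = 0.889), and it was 0.997 without SCFA 2 and 0.44 without control 2 and SCFA 2. Whether precursor or striatal cells had a part in these values was not tested. Zfp362, Zfp931 and Zfp810 had log2 fold changes of 0.87, 0.61 and 0.61, with overlapping groups and edgeR adjusted p from 0.880 to 0.889. Of these 3, Zfp362 and Zfp810 shrank to 0.47 and 0.31 without control 2.

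Members with known roles outside KRAB repression did not pass the test either. Zfp148 measured 247, 259 and 240 CPM in controls and 246, 166 and 206 CPM with SCFA, giving a log2 fold change of -0.27 (SE 0.155, edgeR adjusted p = 0.889) that was -0.13 without SCFA 2. Zfp804a, whose human counterpart is a schizophrenia risk gene, had 32.5, 39.1 and 32.8 CPM in controls and 22.2, 33.1 and 20.95 CPM with SCFA. SCFA 2 lay within the controls' range and the other SCFA libraries below them (log2 fold change -0.45, SE 0.229, edgeR adjusted p = 0.881). Zfp462 had 55.3, 54.6 and 57.3 CPM in controls and 61.6, 76.6 and 64.0 CPM with SCFA. Its groups lay apart in the higher direction, with a log2 fold change of 0.28 (SE 0.163, edgeR adjusted p = 0.889). Zfp638, a nuclear protein that silences unintegrated retroviral DNA, and Zfp207, a spindle protein also known as BuGZ, had log2 fold changes of -0.11 (SE 0.200) and -0.06 (SE 0.246). Zfp36 had 25, 44 and 23 reads in controls and 11, 98 and 29 with SCFA, spread widely within the SCFA group, and its log2 fold change of 0.11 (SE 0.724) became -0.90 without SCFA 2. Zfp536, a brake on neuronal differentiation, had 22.6, 6.23 and 21.2 CPM in controls and 12.98, 19.7 and 18.1 CPM with SCFA, giving a log2 fold change of 0.02 (SE 0.394) that became -0.37 without control 2.

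By chromosome, the members on 13 and 17 lay lowest. Of 30 members on chromosome 13, 26 were below 0 with a median log2 fold change of -0.31, while the other 458 tested genes of that chromosome had a median of -0.01. On chromosome 17, 28 of 38 were below 0 with a median of -0.33, beside 0.04 over 536 other genes. Chromosome 7 holds the most members, 68, and there 31 were below 0 and the median was 0.02, beside 0.03 over 807 other genes. That median was -0.07 without control 2, -0.02 without SCFA 2 and -0.07 without both, so its sign rests on those libraries. Each of the 6 members on chromosome 10 was below 0 (median -0.26, and -0.14 without SCFA 2). On chromosome 8 it was 11 of 17 (median -0.20, and -0.0068 without SCFA 2). Of the 13 chromosomes with 5 or more members, 11 had a median below 0, the exceptions being chromosome 7 and chromosome 6 (0.15 over 12 members, and 0.09 without control 2 and SCFA 2). The number of chromosomes with a median below 0 was 11 without control 2, 8 without SCFA 2, 9 without both and 4 with total-count scaling. That scaling moved the median of all tested genes to 0.18. No test of the difference between chromosomes was made.

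**Figure D4:**
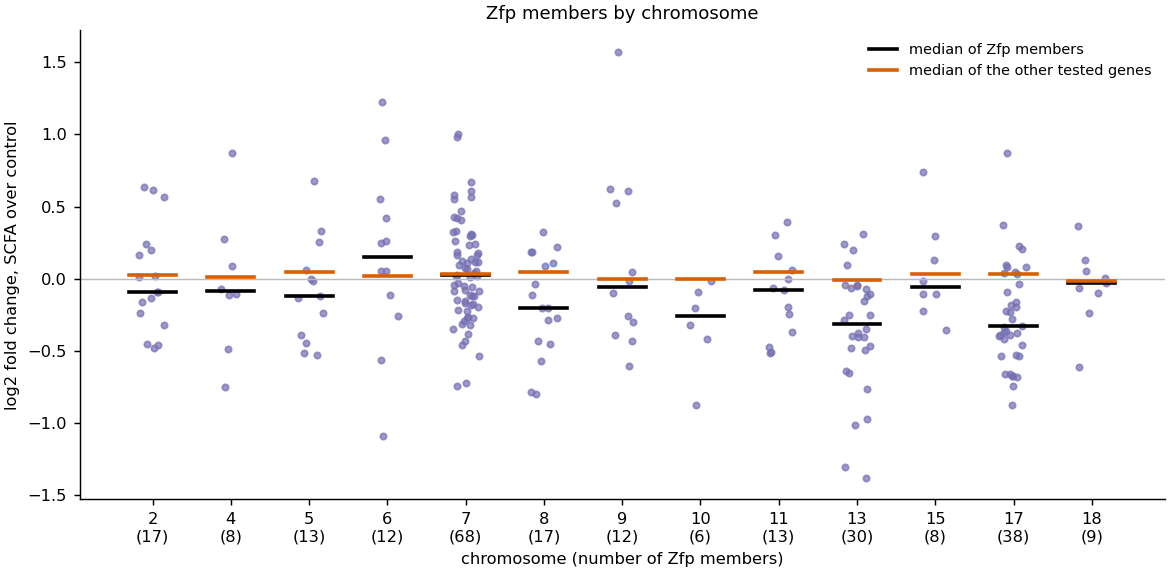
Log2 fold change (SCFA over control) of each Zfp member by chromosome, with the number of members in brackets, the median of the members in black and that of the other tested genes of the chromosome in orange. Black bars stand at -0.31 and -0.33 on chromosomes 13 and 17 and at 0.02 on chromosome 7, and the orange bars lie between -0.01 and 0.05.

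The values on chromosomes 13 and 17 kept their direction in each alternative given here and changed in size. On chromosome 13 the median was -0.15 without SCFA 2, -0.48 without control 2, -0.29 without both and -0.20 with total-count scaling. On chromosome 17 it was -0.16, -0.26, -0.17 and -0.18 in that order. The 68 members of both chromosomes had a score of 0.21, -0.01 and 0.21 in controls 1 to 3, against 0.06, -0.41 and -0.07 in SCFA 1 to 3. Control 2 lay below SCFA 1, and SCFA 2 was the lowest library for 39 of the 68. Groups did not overlap in 15 of these members (22.1% of 68), all lower with SCFA, where 5.74% of all tested genes were lower and 6.42% higher without overlap. The 201 members elsewhere had a median of -0.05, which was 0.01 without SCFA 2, and among them 16 were lower and 14 higher without overlap (7.96% and 6.97%), near the shares of all tested genes. Chromosomes 13 and 17 had the lowest member medians in these same libraries, so an excess of lower members there follows in part from their choice. The shares describe this split and do not test it.

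Of these 68 genes, 48 lie in 3 clusters, taken here as runs of Zfp genes whose starts follow within 250 kb. In all, 9 such clusters held 5 or more members, and the others lie on chromosomes 6 and 7. Medians of those others ran from -0.27 to 0.42, and only that from 127233061 on chromosome 7 was below 0. The chromosome 7 cluster from 24081877 (8 members, median 0.25, and 0.03 without control 2) summed to 63.3, 46.8 and 53.6 CPM in controls. With SCFA it summed to 64.8, 63.4 and 65.2 CPM, above every control. The cluster on chromosome 13 from 67038594 to 67827000 holds 21 members, 20 of them with a KRAB pattern, and 19 were below 0 (median log2 fold change -0.35, and -0.15 without SCFA 2). Their CPM summed to 458, 386 and 465 in controls 1 to 3, against 412, 258 and 368 in SCFA 1 to 3, means of 437 ± 43.5 and 346 ± 79.1 (SD, n = 3 each). SCFA 1 lay above control 2, so the groups overlapped. On chromosome 17 the cluster from 21383707 to 22456689 holds 16 members, all with a KRAB pattern, and 12 were below 0 (median -0.38, and -0.24 without SCFA 2 and -0.17 without both libraries). It summed to 284, 304 and 266 CPM in controls and 256, 172 and 241 CPM with SCFA, so that every SCFA library lay below every control. The cluster from 32765496 to 33631716 on chromosome 17 holds 11 members, of which 7 were below 0 (median -0.36, and -0.11 without SCFA 2 and -0.12 without control 2). It summed to 467, 446 and 469 CPM in controls and 450, 361 and 447 CPM with SCFA, where only SCFA 2 stood clear of the others. The other tested genes inside or within 1 Mb of the 3 clusters on chromosomes 13 and 17, in the order given, had medians of -0.33 (15 genes, 8 below 0), -0.30 (4 genes, 4 below 0) and 0.30 (46 genes, 15 below 0). Near the first 2 of these clusters the other genes were few, and their medians lay close to those of the members. Those near the chromosome 13 cluster ranged from -1.36 to 2.71 and included the zinc finger genes Rsl1 and Zfp457. Those near the first chromosome 17 cluster included Zfp820, and the most abundant of them, Ppp2r1a, stood at -0.02. Whether the members and the other genes of these regions moved together was not tested.

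**Figure D5:**
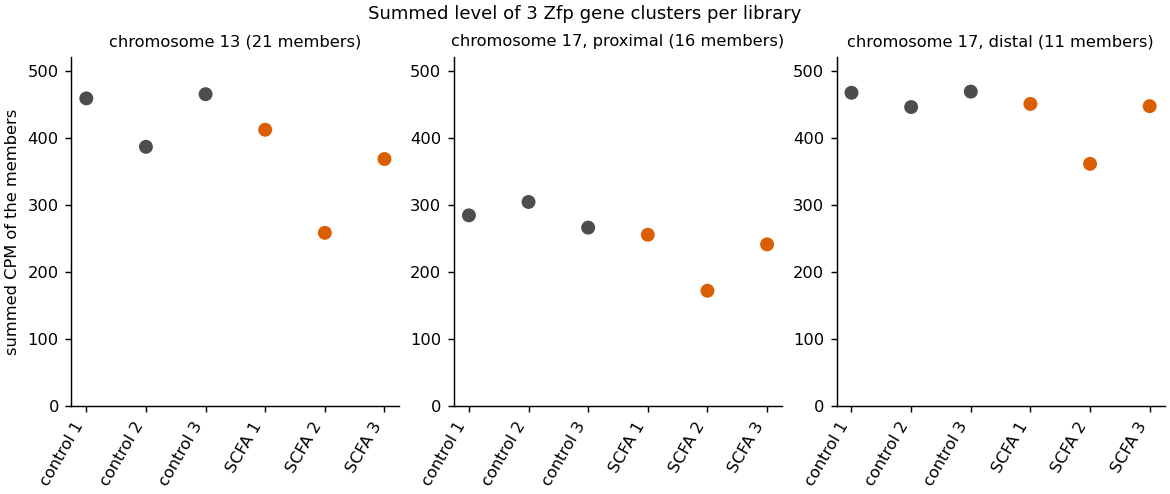
Summed CPM of the members of 3 Zfp gene clusters per library (vertical axes from 0), with controls in grey and SCFA in orange; proximal and distal name the clusters on chromosome 17 nearer to and farther from the chromosome's start. SCFA 2 is the lowest library in each, at 258, 172 and 361 CPM, and the groups overlap in the first panel through SCFA 1 at 412 and in the last through SCFA 1 at 450 and SCFA 3 at 447.

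Members with and without sequence shared with near copies lay below 0 on both chromosomes. On chromosome 13, 10 of 13 members with under 10% shared windows were below 0 (median -0.40) and 16 of 17 with more (median -0.25). On chromosome 17 it was 21 of 28 (median -0.33) and 7 of 10 (median -0.32). Over all members the medians were -0.09 for the 207 with under 10% and -0.18 for the 60 with more, and without SCFA 2 they were -0.02 and -0.04.

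Members with a KRAB pattern had a median log2 fold change of -0.14, with 92 of 139 below 0, and those without it -0.06, with 71 of 128 below 0. The KRAB members of chromosomes 13 and 17, 53 in number, stood at -0.36, and the 86 elsewhere at -0.07. Those without the pattern stood at -0.19 on chromosomes 13 and 17 (15 members) and -0.03 elsewhere (113). Without SCFA 2 the medians of members with and without the pattern were -0.07 and 0.01, and those of KRAB members on chromosomes 13 and 17 and elsewhere were -0.16 and 0.0042. By number of fingers, the median was 0.02 for the 31 members with 0 to 3, -0.05 for 73 with 4 to 9, -0.12 for 103 with 10 to 14 and -0.13 for 60 with 15 or more. Without control 2 these medians were -0.11, -0.11, -0.22 and -0.21, and without SCFA 2 they were 0.04, -0.0017, -0.03 and -0.05, so the sign of the first and the size of the others moved with single libraries. No test was made of these differences, and of the 68 members on chromosomes 13 and 17, 53 held the pattern. Members without the pattern may include KRAB genes, so the split is by pattern and not by KRAB genes against others.

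No partner of the KRAB proteins passed the test. Of 36 symbols listed for the corepressor complex, its histone methyltransferases, heterochromatin proteins and deacetylases, among them older names of listed genes, 34 were in the table, 25 had enough reads and 0 passed the test in either direction (edgeR quasi-likelihood test, adjusted p under 0.05). At an unadjusted p under 0.05, 0 were higher and 1 lower (4.0% of 25, against 2.79% of all tested genes lower and 2.97% higher), 11 lay above 0 and 14 below, and the median was -0.05 (0.04 without control 2 and SCFA 2). Trim28, the scaffold that KRAB boxes bind, had a log2 fold change of -0.10 (SE 0.209). Hdac2, a histone deacetylase, measured 125, 135 and 112 CPM in controls and 97.4, 77.5 and 108 CPM with SCFA, lower in every SCFA library, with a log2 fold change of -0.40 (SE 0.163, edgeR adjusted p = 0.864). The next in that direction were the heterochromatin genes Mphosph8 (-0.27) and Morc3 (-0.29). In the other direction the first were Chd4 (0.25), Rbbp7 (0.24) and Hdac1 (0.55), subunits of a deacetylase complex. Rbbp7, Hdac1 and Mbd2 (0.22) were higher in every SCFA library than in every control. Groups did not overlap in 3 of the 25 genes in the higher direction and in 1, Hdac2, in the lower. Of all tested genes, 6.42% were higher and 5.74% lower without overlap. Setdb1, the methyltransferase that TRIM28 recruits, had 1 read over 3 rows and could not be compared.

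Other zinc finger families were read in the same way. With the same minimum of 120 reads, 30 Zbtb genes, whose fingers follow a BTB domain, had a median log2 fold change of -0.07 with 17 below 0. The 12 Zkscan and Zscan genes, which carry a SCAN domain, had a median of -0.07 with 8 below 0. Without SCFA 2 the medians of these 2 families were -0.13 and -0.16, beside -0.02 for the Zfp members. Without control 2 and SCFA 2 they were -0.11 and -0.17, beside -0.10 for the Zfp members. The 22 Klf, Sp and Egr genes had a median of 0.11 with 15 above 0, which was -0.01 without control 2. In each of the 3 families 0 genes were called in edgeR's quasi-likelihood test at an adjusted p under 0.05. At an unadjusted p under 0.05, 0 were higher in each, and 1 was lower in the Zbtb family, 0 in the Zkscan and Zscan family and 2 in the Klf, Sp and Egr family (3.33%, 0% and 9.09%), against 2.97% of all tested genes higher and 2.79% lower.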

How the data were processed

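RNA-seq of mouse cortex gave 6 libraries, 3 per group. The values the authors deposited are raw read counts, with 34755 RefSeq transcripts as rows; CASAVA 1.8.2, featureCounts and the build mm10 are named in the submitters' processing notes, and the aligner, strand setting and treatment of shared reads are among the steps not given in these sources. Total RNA from snap-frozen cortex was made into libraries with a human FFPE RNA kit, per the labels' protocols. Through RefSeq gene tables of GRCm38.p6, 34424 rows (99.05%) were matched to a symbol and summed per symbol. The most abundant unmatched row, 35.0% to 55.3% of a library, stayed in the library sizes and was removed in an alternative.

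Counts were tested with edgeR 4.0.16 (R 4.3.3; filterByExpr with minimum count 10 and minimum total 15, TMM, quasi-likelihood test), SCFA against control without covariates, with Benjamini-Hochberg adjustment over all 11969 genes tested. The script was tested on simulated data. DESeq2 1.42.0 and limma-voom (limma 3.58.1), other scalings, filters and member totals, a replicate block and left-out libraries were the alternatives. A floor of 3 counts stood for 0.207 to 0.346 CPM. With 3 libraries per group no exact test was run on single values.

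The members and lists were chosen with earlier results of these data known. Members named in the text are the 8 with the smallest p in each direction, the 3 with the highest mean CPM, a list of members with known roles, and the 3 on either side of the minimum total of 120. Among KRAB corepressors, they are the 3 with the smallest p in each direction, with Trim28 and Setdb1 added for their role. Mbd2 was added because its groups did not overlap. Protein sequences were to be read from RefSeq; fingers and KRAB boxes were instead sought in translated GENCODE M21 coding sequences. The KRAB pattern was widened after a narrower version had missed known forms, when values split by that version had been seen. The widened pattern may still miss some forms. Clusters, finger number bins, shared windows of 50 bases, counts of the lowest library and CG counts were added after the data were examined. CPM per library uses TMM-scaled library sizes, and the member score uses a prior count of 2.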

Additional observations from a re-analysis of the deposited data

How the results depend on the processing

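No member was called at an adjusted p under 0.05 under any alternative run, except 1 lower member (Zfp433) without the low-count filter. At an unadjusted p under 0.05, the 1 higher member became 2 with DESeq2, 3 with limma-voom, 4 without the low-count filter, 3 with total counts, 4 with a member total of at least 60, 6 without control 2 and SCFA 2, and 0 to 4 with single libraries left out. The 18 lower members became 4 with total counts and 13 to 27 with single libraries left out. The shares of all tested genes in these settings are not given here, so these counts have no background beside them. The median log2 fold change was 0.056 with total counts and ranged from -0.16 to -0.02 with single libraries left out. Of 26 named members, 20 kept their sign in all 17 alternatives. With total counts the sign turned for Zfp106 (0.0022), Zfp638 (0.011), Zfp207 (0.10) and Zfp365 (0.12), and without control 2 and SCFA 2 for Zfp36 (-0.37) and Zfp536 (-0.49). With single libraries left out the ranges were -0.90 to 0.64 for Zfp36, -0.31 to 0.12 for Zfp638, -0.26 to 0.11 for Zfp207, -0.19 to 0.15 for Zfp365 and -0.37 to 0.31 for Zfp536. The cause was not tested. Libraries of the same number showed no shared deviation from their group means (r of -0.0021, 0.010 and -0.0052 over genes), so the numbers were not taken as pairs. With the replicate block 2 members were higher and 19 lower at an unadjusted p under 0.05, Zfp36 stood at -0.14 and Zfp365 at 0.0038. Depth limits members near 120 reads, where a library holds few reads, and 3 libraries per group limit every comparison.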

Other observations

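Inside the Zfp cluster of chromosome 13 lie genes that are not members, and they were picked after their values were seen. Rsl1, a KRAB zinc finger gene that restrains male-specific liver genes, measured 8.03, 7.39 and 11.7 CPM in controls 1 to 3 and 7.22, 3.44 and 6.93 CPM in SCFA 1 to 3, with every SCFA library below every control (log2 fold change -0.63, SE 0.413, edgeR adjusted p = 0.896). Zfp457, which fell short of the minimum total, went the other way, with 0.162, 0.231 and 0.301 CPM in controls and 1.99, 1.52 and 1.19 CPM with SCFA. Its log2 fold change was 2.71 (SE 1.05, edgeR adjusted p = 0.864), at 2 to 3 reads per control library.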
